A study of Mus musculus with 15 samples.

Results

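The UGT, GST and SULT conjugating enzymes were taken as all protein-coding mouse genes whose symbol starts with Ugt1a, Ugt2a, Ugt2b, Gsta, Gstm, Gstp, Gstt, Gsto, Gstk, Mgst or Sult. The annotation held 64 such genes, of which 63 were among the 43629 genes of the count table; Ugt2a1 was not analysed here. These 63 comprised 18 UGT genes, 21 cytosolic or mitochondrial GST genes, 3 MGST genes and 21 SULT genes. In all, 13 had a count of 0 in all 13 grouped libraries, namely Ugt2a2, Sult1c1, Sult3a1, Sult3a2, Sult5a1 and the 8 Sult2a genes, hydroxysteroid sulfotransferases known from liver, and 6 more never exceeded 5 counts. Genes were tested where their FPKM (fragment count scaled to transcript length and library size) reached 0.1 in 4 or more of the libraries compared. This left 43 members tested in both comparisons with Apc organoids and 44 in the comparison of P-Rspo3 with WT. Sult5a1 had no FPKM value.

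Conjugating enzymes attach polar groups to foreign and endogenous compounds, chiefly in the liver and gut. UDP-glucuronosyltransferases (UGT) sit in the endoplasmic reticulum and transfer glucuronic acid from UDP-glucuronic acid to bilirubin, steroids, bile acids, phenols and drugs. Glutathione S-transferases (GST) couple glutathione to electrophiles, the membrane-bound MGST enzymes doing so in cell membranes, and sulfotransferases (SULT) move a sulfonate group from the donor PAPS to phenols, steroids and catecholamines. In the small intestine these enzymes are known chiefly from absorptive enterocytes, where they act on compounds taken up from the lumen before exporters of the ABC family carry the conjugates out of the cell.

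RNA-seq was performed on organoids grown from crypts of the mouse proximal small intestine on a mixed C57B6/129 background. WT comprised 5 libraries cultured in ENR medium (EGF, Noggin and RSPO1): 4 Apc flox/flox lines before deletion (replicates 1, 2, 5 and 6) and 1 library from dox-naive organoids (replicate naive). Apc comprised 4 libraries of Apc delta/delta cells, grown in EN medium without RSPO1. Their titles carry the same numbers (1, 2, 5 and 6), from which they were taken as the same lines after deletion. P-Rspo3 comprised 4 libraries of polyclonal cultures (15d, 4d, M and F), also in EN medium. In these, doxycycline-inducible Cas9, driven from R26-rtTA and a c3GIC9 transgene, had produced the Ptprk-Rspo3 inversion. The titles do not say what 15d, 4d, M and F stand for, or whether these libraries came from separate cultures. Culture medium therefore went with genotype in both comparisons with WT and cannot be told apart from it there, and of the WT libraries 4 of 5 came from the Apc flox/flox lines. Apc and P-Rspo3 shared the medium and differed in line. The 13 libraries held 28902729 to 35528495 gene counts.

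Levels within a gene are given as TMM-normalized CPM, counts scaled to each library's effective size, and levels between genes as FPKM, which is scaled to length. Transcripts of the targeted loci were read first as a check of the labels. Rspo3, the R-spondin placed under the Ptprk promoter by the inversion, stood at 0.0328, 0, 0, 0 and 0 CPM in WT replicates 1, 2, 5, 6 and naive, at 1.16, 1.65, 0.187 and 0.56 CPM in Apc replicates 1, 2, 5 and 6, and at 33.5, 18.9, 35.1 and 32.2 CPM in P-Rspo3 replicates 15d, 4d, M and F. The 4 P-Rspo3 libraries were above all others. Ptprk was 62.5, 109, 64.9 and 56.4 CPM in P-Rspo3, against 117, 109, 116, 148 and 114 CPM in WT, so that replicate 4d lay at the lower edge of the WT range and the other 3 below it. Apc transcript was 282, 269, 261 and 256 CPM in the Apc libraries and 152, 161, 158, 201 and 146 CPM in WT; a gene-level count does not show whether the floxed part is missing and checks nothing here. The 6 epithelial markers (Epcam, Cdh1, Vil1, Krt8, Krt18 and Krt19) summed to 5892 ± 415 CPM in WT (mean ± SD), 5196 ± 465 in Apc and 6048 ± 275 in P-Rspo3, with 1 higher and 1 lower of 6 called in Apc versus WT (Krt18 higher, Vil1 lower, median -0.25).

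In WT organoids the conjugating enzymes were led by glutathione transferases. Gstm1, a mu-class enzyme, had the highest level at 1269.8 ± 591 FPKM (mean ± SD, n = 5), 16.5% of the summed FPKM of all members. It was followed by the alpha-class Gsta1 at 1131 ± 324, the microsomal Mgst1 at 855 ± 128 and Gstm3 at 694 ± 313 FPKM. These neighbours in the order overlapped within 1 SD. The highest UGT was Ugt2b34 at 352 ± 29.2 FPKM, above Ugt1a7c at 206 ± 31.4 and Ugt1a1, the bilirubin-conjugating enzyme, at 118 ± 18.5 FPKM. The highest sulfotransferases were Sult1b1, which acts on phenols and thyroid hormones, at 81 ± 16.6 and Sult1d1, which acts on catecholamines, at 79.9 ± 11.9 FPKM. By family, Gstm held 29.2%, Gsta 23.6%, Mgst 17.9%, Ugt2 6.97% and Gstp 6.04% of the members' summed FPKM in WT. Gsto held 5.45%, Ugt1a 5.41%, Sult 3.16%, Gstt 1.9% and Gstk 0.23%.

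Several libraries stood apart from the rest of their group. Over the 44 members tested between P-Rspo3 and WT, replicate 15d was the lowest P-Rspo3 library for 35 and replicate F the highest for 32, whereas in WT replicate 6 was the lowest for 23 and replicate naive the highest for 21. Such ranks were not counted over all genes, so they are not read as particular to the members. All members together summed to 10409, 9377, 8282, 8058 and 13952 CPM in WT replicates 1, 2, 5, 6 and naive and to 6261, 10165, 9809.7 and 15203 CPM in P-Rspo3 replicates 15d, 4d, M and F. The 10 enterocyte markers, Sis being the most abundant, summed to 7463, 8372, 7678 and 14756 CPM in the same P-Rspo3 libraries and to 12061, 12533, 19946, 9089 and 12086 CPM in WT, so that replicate F was also the highest P-Rspo3 library for these markers, while in WT replicate 5 was the highest. Their part in the spread was not tested.

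**Figure D1:**
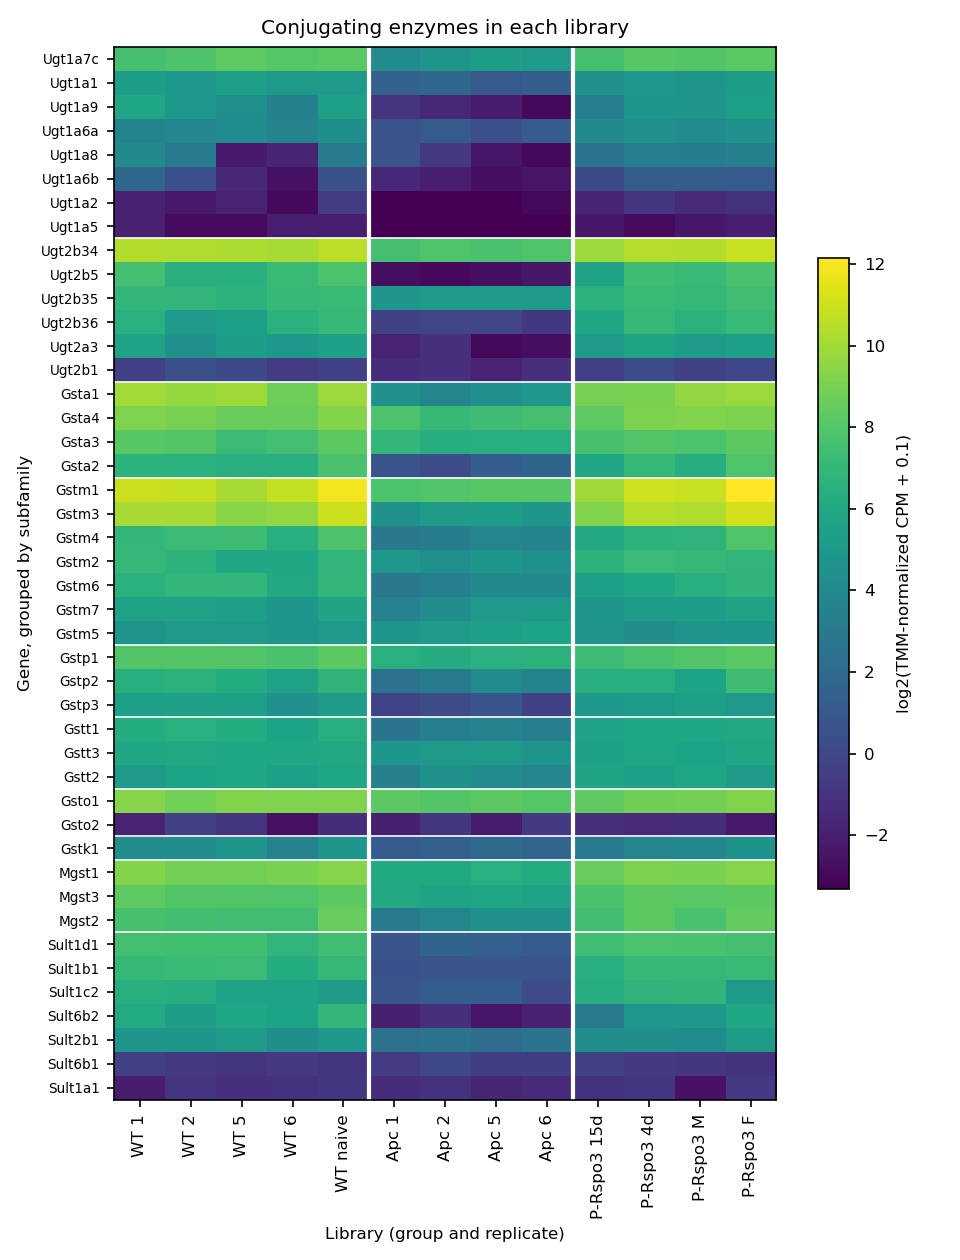
Heat map of log2(TMM-normalized CPM + 0.1) for the 44 members tested between P-Rspo3 and WT (rows, by subfamily) in the 13 libraries (columns, by group), darker cells being lower. The 4 Apc columns are darker than the WT and P-Rspo3 columns for most genes, while Gstm5 is not, and Ugt1a8 is low in WT replicates 5 and 6 too.

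The first comparison asked how the conjugating enzymes differed between organoids that had lost Apc and WT organoids. Of 43 members tested, 38 were lower in Apc, none was higher and 5 did not pass (edgeR quasi-likelihood test, Benjamini-Hochberg adjusted p under 0.05 and log2 fold change past 1 in size). Over all 16749 genes tested, 14.1% were called lower and 12.2% higher. The median log2 fold change was -3.05 over the 43 members against 0.00058 over all genes tested, and 23 members were below -3. Both summaries include the 9 members, described below, that passed the expression filter only with WT libraries counted in. The count of 0 higher members was the same with DESeq2 and with limma, with 1 member above 0 at an unadjusted p under 0.05. With no FPKM filter, or without Apc replicate 2, Sult4a1 was called higher. Of the 43 members, 34 reached the filter in all 4 Apc libraries, and 30 of these were called lower; the other 9 passed the filter only with WT libraries counted in. In 36 of the 43 the groups did not overlap. That share was not counted over all genes, so it is not read as particular to the members. In bulk RNA, fewer cells of an expressing type and less RNA per cell cannot be told apart, and the p-values measure the spread between these cultures only.

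Promoters of 5 members are shown: 4 with some of the largest decreases in Apc and, for contrast, Gstm5, which was not called. The 150 bases before each start were taken from RefSeq (GRCm38.p6), in which 56 members had at least 1 window, 67 windows in all. Of the motifs searched on both strands, 4 are given here, and the windows may hold others: the antioxidant response element core TGACNNNGC, the xenobiotic response element core GCGTG, the HNF4 site CAAAGTCCA and the CDX site TTTATNG. Capitals mark a match to these 4. The windows of Sult6b2, Sult1d1 and Gstm5 are printed to the base before the gene's start in the GENCODE annotation, which lies 36, 21 and 33 bases further upstream than in RefSeq.
Ugt2b5, chr5:87140341-87140490, minus strand: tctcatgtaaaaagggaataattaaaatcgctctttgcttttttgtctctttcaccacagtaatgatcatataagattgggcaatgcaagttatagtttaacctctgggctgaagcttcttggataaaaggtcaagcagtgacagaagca
Ugt2a3, chr5:87337196-87337345, minus strand: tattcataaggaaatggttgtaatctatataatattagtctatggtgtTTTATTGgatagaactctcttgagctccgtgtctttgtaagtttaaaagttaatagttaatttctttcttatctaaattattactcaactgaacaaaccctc
Sult6b2, chr6:142804503-142804616, minus strand: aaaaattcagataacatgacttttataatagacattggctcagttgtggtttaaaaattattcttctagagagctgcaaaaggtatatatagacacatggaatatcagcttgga
Sult1d1, chr5:87569028-87569156, minus strand: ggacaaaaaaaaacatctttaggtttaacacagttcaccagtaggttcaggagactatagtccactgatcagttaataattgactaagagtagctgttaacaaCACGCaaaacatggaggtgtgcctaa
Gstm5, chr3:107895704-107895820, plus strand: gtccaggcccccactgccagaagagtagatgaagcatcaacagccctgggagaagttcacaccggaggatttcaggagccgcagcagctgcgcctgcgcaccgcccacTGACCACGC
Of these 4, the windows of Ugt2b5 and Sult6b2 held none, Ugt2a3 had a CDX site, Sult1d1 a xenobiotic response element core, and Gstm5 an antioxidant and an overlapping xenobiotic response element core. A further motif that was searched but is not named here was also in the windows of Ugt2a3 and Sult1d1. It was in none of the windows of Ugt2b5, Sult6b2 and Gstm5. The antioxidant core was in 5.97% of member windows against 6.8% of all, the xenobiotic core in 13.4% against 20.5%, the CDX site in 5.97% against 5.8% and the HNF4 site in 0 of 67 against 0.3%. A match of letters is a description and not a site of binding.

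Among the UGT genes, all 13 tested members were lower in Apc, 7 of Ugt1a and 6 of Ugt2, but 7 of the 13 (Ugt2b5, Ugt2a3, Ugt2b1, Ugt1a9, Ugt1a8, Ugt1a6b and Ugt1a2) fell short of the filter in 1 or more Apc libraries and passed it only with WT libraries counted in. The other 6 reached it in all 4 Apc libraries and were all called lower. The largest decrease of any tested member was that of Ugt2b5, a steroid and bile acid conjugating enzyme (ENSMUSG00000054630, chr5:87124960-87140318, minus strand, GRCm38). Ugt2b5, whose promoter window held none of these 4 motifs, stood at 185, 86.7, 83.6, 141 and 223 CPM in WT replicates 1, 2, 5, 6 and naive, at 0.0514, 0.029, 0.0535 and 0.0974 CPM in Apc replicates 1, 2, 5 and 6 and at 53.3, 166, 139 and 207 CPM in P-Rspo3 replicates 15d, 4d, M and F. The Apc libraries held 1 to 4 counts each and lay far below every WT library. Its log2 fold change in Apc versus WT was -11.17 ± 0.54 (adjusted p = 6e-08), a value that at so few counts depends on the prior count of the fit. Of its 50-base words, 41.7% also occur in another gene, most in Ugt2b38. Ugt2a3, a bile acid glucuronidating enzyme (ENSMUSG00000035780, chr5:87324972-87337195, minus strand) with a CDX site in its window, was at 48.3, 22.8, 38.7, 30.6 and 46.4 CPM in WT, 0.18, 0.319, 0.0267 and 0.0487 CPM in Apc and 32.3, 52.3, 37.6 and 43.8 CPM in P-Rspo3, with 1 to 11 counts per Apc library. Its log2 fold change was -8.05 ± 0.45 (adjusted p = 1.6e-07).

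The UGT genes with the highest mean FPKM over all 13 libraries, a mean that counts the Apc libraries in, were Ugt2b34 and Ugt2b35 of Ugt2 and Ugt1a7c and Ugt1a1 of Ugt1a. Ugt2b34 was at 1318, 1257, 1244, 1143 and 1485 CPM in WT, 193, 234, 209.7 and 242 CPM in Apc and 936, 1356, 1350.3 and 1834 CPM in P-Rspo3. The WT and P-Rspo3 ranges overlapped and the Apc libraries lay below both, at a log2 fold change of -2.57 ± 0.11 (adjusted p = 2.3e-08) against WT, or 5.95-fold lower. Ugt2b35 was at 122, 117, 98.6, 130.1 and 142 CPM in WT, 26.4, 37.7, 34.5 and 34 CPM in Apc and 96.7, 142, 128 and 169.9 CPM in P-Rspo3, a log2 fold change of -1.90 ± 0.13 (adjusted p = 5.2e-07) in Apc versus WT. Ugt1a7c, a phenol-conjugating form, was at 196, 232, 314, 269 and 298 CPM in WT, 17.5, 26.3, 39.8 and 33.7 CPM in Apc and 189, 283, 256 and 296 CPM in P-Rspo3. It was 9.05-fold lower in Apc than in WT, with no overlap between them. Ugt1a1 was at 39.1, 29.9, 43, 31.8 and 31.5 CPM in WT, 2.85, 3.48, 1.93 and 2.48 CPM in Apc and 25.1, 30.6, 25.3 and 40.7 CPM in P-Rspo3, 13.2-fold lower in Apc than in WT (adjusted p = 9.1e-08). The remaining tested members ran from Ugt2b1 at -1.57 ± 0.32, a call lost with both limma fits, to Ugt1a9 at -7.34 ± 0.65.

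The Ugt1a genes lie at one locus, where each has its own first exon and all share the downstream exons, so that 17.3% (Ugt1a1) to 49.7% (Ugt1a6a) of their exonic bases were unshared. Counts from shared exons could not be given to one gene. Within WT, 3 members of this locus were lowest in lines 5 and 6, a pattern chosen after its values were seen. Ugt1a8 was at 17.1, 7.92, 0.114, 0.207 and 7.91 CPM in WT replicates 1, 2, 5, 6 and naive, which is 523, 216, 3, 7 and 220 counts. The Apc libraries of lines 1, 2, 5 and 6 held 56, 17, 3 and 1 counts, and the P-Rspo3 libraries 185, 279, 262 and 281 counts. Lines 5 and 6 were low in both WT and Apc, so that the WT and Apc ranges overlapped. Within each of the 4 lines, as paired by number, Ugt1a8 was lower in Apc, at 1.44, 0.493, 0.0802 and 0.0243 CPM. Ugt1a6b was also lowest in lines 5 and 6 and was lower in Apc in 3 of the 4 lines, with 105, 35, 6, 2 and 37 counts in WT and 9, 5, 2 and 3 in Apc. Ugt1a9 was at 53.7, 30.4, 21.8, 11.2 and 44.1 CPM in WT, and its Apc libraries held 16, 8, 5 and 1 counts; its WT and Apc ranges did not overlap. In WT, neighbouring Ugt1a7c and Ugt1a1 were not low in lines 5 and 6. Ugt1a8 was called lower in Apc at -3.72 ± 1.37 (adjusted p = 0.0369) and Ugt1a6b at -3.32 ± 0.98 (adjusted p = 0.0133), and with the line as a block at -3.44 ± 0.46 (adjusted p = 0.000756) and -2.89 ± 0.60 (adjusted p = 0.0057). Without the block the call for Ugt1a8 was lost when WT replicate 1, WT replicate 2, WT replicate naive, Apc replicate 2, Apc replicate 5 or Apc replicate 6 was left out. Neither gene was called by limma at either pseudocount, and Ugt1a6b was not tested at an FPKM of 1 or more. The call for Ugt1a2 rested on 1 to 15 counts per WT library and 0 to 1 per Apc library, where a fitted fold change depends on the prior count and is not given, and without WT replicate 1, 2, 5 or naive the gene was below the expression filter and not tested.

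**Figure D2:**
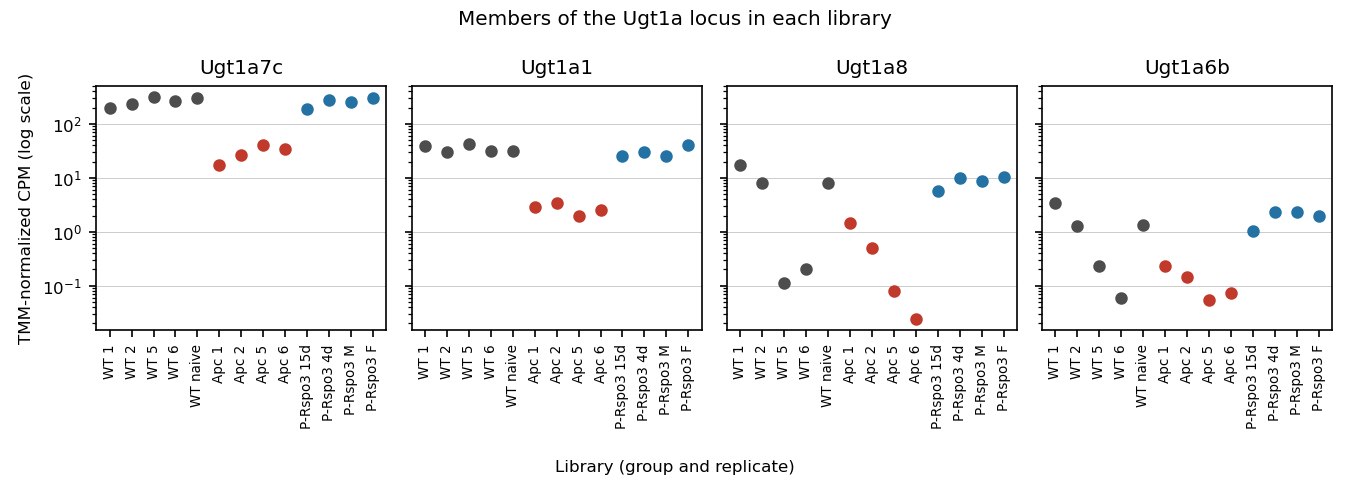
TMM-normalized CPM (log scale) of 4 genes of the Ugt1a locus in each library, with WT in grey, Apc in red and P-Rspo3 in blue. Ugt1a7c and Ugt1a1 separate Apc from the other groups, whereas Ugt1a8 and Ugt1a6b are also low in WT replicates 5 and 6.

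Of the 20 cytosolic or mitochondrial GST genes tested, 17 were lower in Apc. All 4 Gsta genes fell, with a wide range. Gsta1 was at 1051, 837, 999.6, 423 and 901 CPM in WT, 23.3, 13.5, 21.9 and 30.8 CPM in Apc and 513, 525, 808 and 922 CPM in P-Rspo3. It was 38.1-fold lower in Apc, at -5.25 ± 0.34 (adjusted p = 4.1e-07). Gsta4, which conjugates the lipid peroxidation product 4-hydroxynonenal, was at 580.4, 503, 397, 388 and 628 CPM in WT, 224, 131, 162 and 192 CPM in Apc and 314, 542, 598 and 549 CPM in P-Rspo3, 2.86-fold lower in Apc than in WT (adjusted p = 4.9e-05). For Gsta1 and Gsta4 alike the Apc libraries lay below all others. Gsta2 was at -5.84 ± 0.40 and Gsta3 at -1.35 ± 0.22. Gsta1 shares 89.7% of its 50-base words with other genes, most with the gene model Gm3776, and Gsta2 64.2%, most with Gsta1, so that reads may be split between them.

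Within the mu class 5 of 7 fell. Gstm1 was at 1923, 1814, 1129.5, 1773 and 3798 CPM in WT, 223, 245, 284 and 281 CPM in Apc and 1006, 2129, 1832 and 4566 CPM in P-Rspo3. WT replicate naive and P-Rspo3 replicate F were highest, and the Apc libraries were below all others at -3.03 ± 0.31 (adjusted p = 1.2e-05). Gstm3 was at 1119, 1107, 666, 797 and 2053 CPM in WT, 23.1, 37.5, 40.7 and 26.8 CPM in Apc and 587, 1404, 1251 and 2236 CPM in P-Rspo3, 36.3-fold lower in Apc than in WT (adjusted p = 9.5e-07). Gstm7 (-0.91 ± 0.29, adjusted p = 0.0181) did not reach the fold threshold. Gstm5 was at 25.2, 33.7, 32.9, 29.7 and 31.5 CPM in WT, 27.6, 38, 43.5 and 50.7 CPM in Apc and 26, 20.3, 25.9 and 27.9 CPM in P-Rspo3. Its log2 fold change of 0.37 ± 0.16 (adjusted p = 0.0688) did not pass, its groups overlapped, and no other tested GST gene had a value above 0. Within each of the 4 lines Gstm5 was higher in Apc than in WT, and with the line as a block it was not called. An overlapping gene, 4933431E20Rik, covers part of Gstm5, leaving 86.1% of its exonic bases unshared.

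The pi class lies at one locus on chromosome 19. Gstp1 was at 253, 262, 253, 209 and 309 CPM in WT, 90.9, 78.1, 91.9 and 99.3 CPM in Apc and 157, 206, 251 and 289 CPM in P-Rspo3, 2.89-fold lower in Apc than in WT (adjusted p = 1.1e-06), and Gstp2 at 83.7, 96.8, 77, 49.2 and 111 CPM in WT, 5.68, 7.92, 17.4 and 11.9 CPM in Apc and 86.3, 84.5, 50.9 and 165 CPM in P-Rspo3, 7.88-fold lower in Apc than in WT (adjusted p = 2.3e-05). Of the 50-base words of Gstp1 and Gstp2, 62.3% and 72.6% occur in another gene, most in each other, and the division of reads between them is uncertain. Gstp3, with 0.0% of such words shared, fell at -5.20 ± 0.29 (adjusted p = 1.6e-07). Of the theta class, Gstt1 was at 78.2, 90.2, 77.9, 50.4 and 82.1 CPM in WT, 6.02, 9.63, 11.6 and 9.84 CPM in Apc and 48.9, 59.4, 61.5 and 64.8 CPM in P-Rspo3, at -3.05 ± 0.21 (adjusted p = 7.8e-07) in Apc versus WT. Gstt3 was at 62.1, 65, 63.3, 59.6 and 64.9 CPM in WT and 27.9, 31.2, 35.7 and 25.8 CPM in Apc, at -1.08 ± 0.092 (adjusted p = 2.9e-06), just past the fold threshold. For Gstp1, Gstp2, Gstt1 and Gstt3 no Apc library reached the WT range. Gsto1, an omega-class enzyme with dehydroascorbate reductase activity, was at 658, 471, 586, 574 and 582 CPM in WT, 309, 260.3, 304 and 268 CPM in Apc and 336, 439.8, 494 and 595 CPM in P-Rspo3, without overlap between WT and Apc. Its log2 fold change of -1.03 ± 0.10 (adjusted p = 8.6e-06) did not reach the fold threshold without WT replicate 1 (-0.979), Apc replicate 2 (-0.984) or Apc replicate 6 (-0.999). Gsto2 was near the detection limit in all groups, at 0.197, 0.734, 0.417, 0.059 and 0.288 CPM in WT, 0.154, 0.435, 0.134 and 0.511 CPM in Apc and 0.342, 0.28, 0.301 and 0.112 CPM in P-Rspo3, and did not pass (-0.12 ± 0.62). Gstk1, the mitochondrial and peroxisomal enzyme, was at 18.8, 18.8, 26.2, 11.5 and 27.6 CPM in WT, 2.21, 2.58, 3.82 and 3.19 CPM in Apc and 8.61, 13.2, 14.7 and 24 CPM in P-Rspo3, 7.05-fold lower in Apc than in WT (adjusted p = 8e-06).

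All 3 membrane-bound enzymes fell. Mgst1 was at 620.0, 483, 466, 531 and 646 CPM in WT, 66.5, 67.4, 91.6 and 72.6 CPM in Apc and 379.7, 551, 521 and 643 CPM in P-Rspo3. The Apc libraries lay below all others, at -2.90 ± 0.14 (adjusted p = 6.1e-08). Mgst2, which can also form leukotriene C4, was at 199.7, 175, 167, 171 and 372 CPM in WT, 8, 13.2, 25 and 25 CPM in Apc and 175, 300.1, 211 and 345 CPM in P-Rspo3, 12.3-fold lower in Apc than in WT (adjusted p = 1.8e-05), and Mgst3 had a log2 fold change of -2.32 ± 0.12.

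The sulfotransferases that the organoids expressed gave 5 lower of 7 tested genes, or 4 of the 5 that reached the filter in all 4 Apc libraries. Sult1d1 was at 181, 175, 179, 118 and 171 CPM in WT, 1.62, 3.02, 2.54 and 2.22 CPM in Apc and 173, 216, 208 and 195 CPM in P-Rspo3, 71.3-fold lower in Apc than in WT (adjusted p = 7.5e-09). Sult1b1 was at 127, 142, 152, 78.2 and 128 CPM in WT, 1.39, 1.6, 1.6 and 1.61 CPM in Apc and 86.5, 125, 129 and 139 CPM in P-Rspo3, 82-fold lower in Apc than in WT (adjusted p = 8.7e-09). Every Apc library lay below every WT and P-Rspo3 library for both genes, which lie on chromosome 5 and were detected in each Apc library at 54 to 104 counts. Sult6b2 was at 71.1, 41.4, 62, 50.2 and 123 CPM in WT, 0.154, 0.319, 0.0802 and 0.17 CPM in Apc and 8.18, 30.4, 30.2 and 58.4 CPM in P-Rspo3, with 3 to 11 counts in the Apc libraries. Its log2 fold change in Apc was -8.59 ± 0.47 (adjusted p = 1.5e-07). Sult6b2 fell short of the filter in 1 or more Apc libraries and passed it only with WT libraries counted in. Sult1c2 (-5.05 ± 0.35) and Sult2b1, a cholesterol sulfotransferase (-2.36 ± 0.17), were also lower. Sult6b1 (0.42 ± 0.24) and Sult1a1 (-0.29 ± 0.35) did not pass and were below 1 CPM in every library. Sult4a1, a sulfotransferase known from brain, was below the expression filter; it had 3, 2, 4, 4 and 3 counts in WT, 25, 9, 57 and 36 in Apc and 0 in all 4 P-Rspo3 libraries, values picked out after they were seen.

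**Figure D3:**
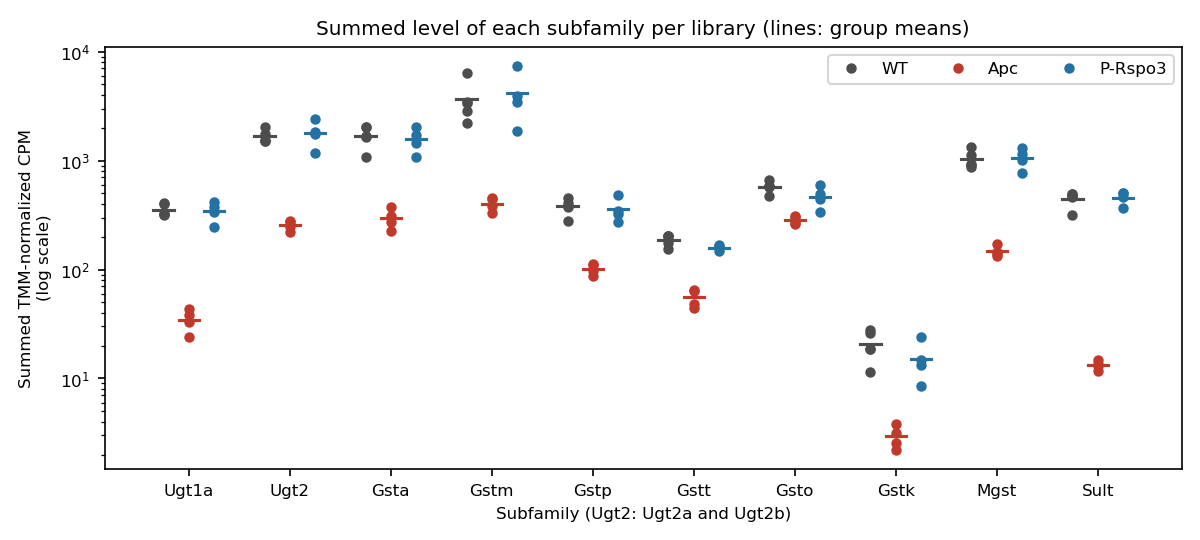
Summed TMM-normalized CPM of each subfamily (log scale) in each library, with horizontal lines at the group means. The Sult sum fell from a mean of 448 in WT to 13.3 in Apc, and the Gsto sum from 575 to 286.

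Summed over subfamilies, the WT mean exceeded the Apc mean 33.8-fold for Sult, 10.2-fold for Ugt1a, 9.08-fold for Gstm, 7.05-fold for Mgst, 6.97-fold for Gstk, 6.58-fold for Ugt2, 5.74-fold for Gsta, 3.72-fold for Gstp, 3.37-fold for Gstt and 2.01-fold for Gsto. The order of members within Apc organoids was accordingly different in level. Gsto1 was first at 252 ± 21.6 FPKM (n = 4), 17.3% of the members' summed FPKM, followed by Gstm1 at 190.0 ± 24.4 and Gsta4 at 170.5 ± 38.2 FPKM, while Gsta1 was at 35.5 ± 12.5 FPKM.

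The second comparison asked the same of P-Rspo3 organoids, which carry the Rspo3 fusion and grew without RSPO1. Of 44 members tested none was called higher or lower, beside 0.00625% called higher (Rspo3 itself) and 0.0% called lower of all 15992 genes tested, so that the count says little about the members. The median log2 fold change was -0.016 over the members against 0.0041 over all genes tested. DESeq2 and limma also called no member, and 4 were lower at an unadjusted p under 0.05: Gstt3, Gstm5, Gstt1 and Sult6b2. Of the 44 members, 41 had a log2 fold change within 0.5 of 0. Gstt3, the one tested member whose groups did not overlap (45, 57, 49.8 and 58.1 CPM in P-Rspo3), was at -0.26 ± 0.083 (adjusted p = 0.217). Separation of the groups was not counted over all genes here either. Sult6b2 had the value furthest from 0, -1.13 ± 0.48 (adjusted p = 0.338), with the 15d library at 8.18 CPM against 30.2 to 58.4 CPM in the others. Other examples were Gsta1 at -0.28 ± 0.26, Mgst1 at -0.067 ± 0.16, Ugt2b5 at -0.024 ± 0.39, Ugt1a7c at -0.031 ± 0.16 and Sult1b1 at -0.063 ± 0.19. A p that misses the threshold does not show that the groups were alike. Without replicate 15d the median was 0.080, without replicate F it was -0.12, and without WT replicate naive it was 0.024, with no member called in any of these. The count over all genes moved with the setting: 166 were higher and 100 lower without WT replicate naive, 55 and 173 with DESeq2 and 14 and 61 with all 3 groups in 1 fit.

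The third comparison set Apc against P-Rspo3 organoids, both without RSPO1 in the medium. Of 43 members tested, 36 were lower in Apc and none higher, against 13.3% called lower and 13.4% called higher of all 16456 genes tested. Of the 43, 34 reached the filter in all 4 Apc libraries, 28 of these being called lower, and the others passed it only with P-Rspo3 libraries counted in. The median log2 fold change was -3.13 over the members and 0.00066 over all genes. The members' median includes those that passed the filter only with P-Rspo3 libraries counted in. DESeq2 and limma gave no higher member, and 1 member, Gstm5, was above 0 at an unadjusted p under 0.05. Sult4a1 was called higher with no FPKM filter and with some single libraries left out, and Gstm5 with the adjusted p alone. The Apc libraries are the same as in the comparison with WT, so both sets of values share them. Side by side, the log2 fold changes against WT and against P-Rspo3 were -11.17 and -11.14 for Ugt2b5, -8.05 and -8.19 for Ugt2a3, -8.59 and -7.45 for Sult6b2, -5.25 and -4.95 for Gsta1 and -2.90 and -2.82 for Mgst1. Gsto1 (-0.71 ± 0.16) and Gstt3 (-0.81 ± 0.12) passed the adjusted p here but not the fold threshold. Gstm5 was 0.67 ± 0.18 (adjusted p = 0.0103), short of the fold threshold. By family the 36 were 13 of 13 UGT (6 of the 6 that reached the filter in all 4 Apc libraries), 15 of 20 cytosolic or mitochondrial GST, 3 of 3 MGST and 5 of 7 SULT genes. Among SULT genes, 4 of the 5 that reached the filter in all 4 Apc libraries were lower. The count of 36 was the same without replicate 15d and without replicate F.

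**Figure D4:**
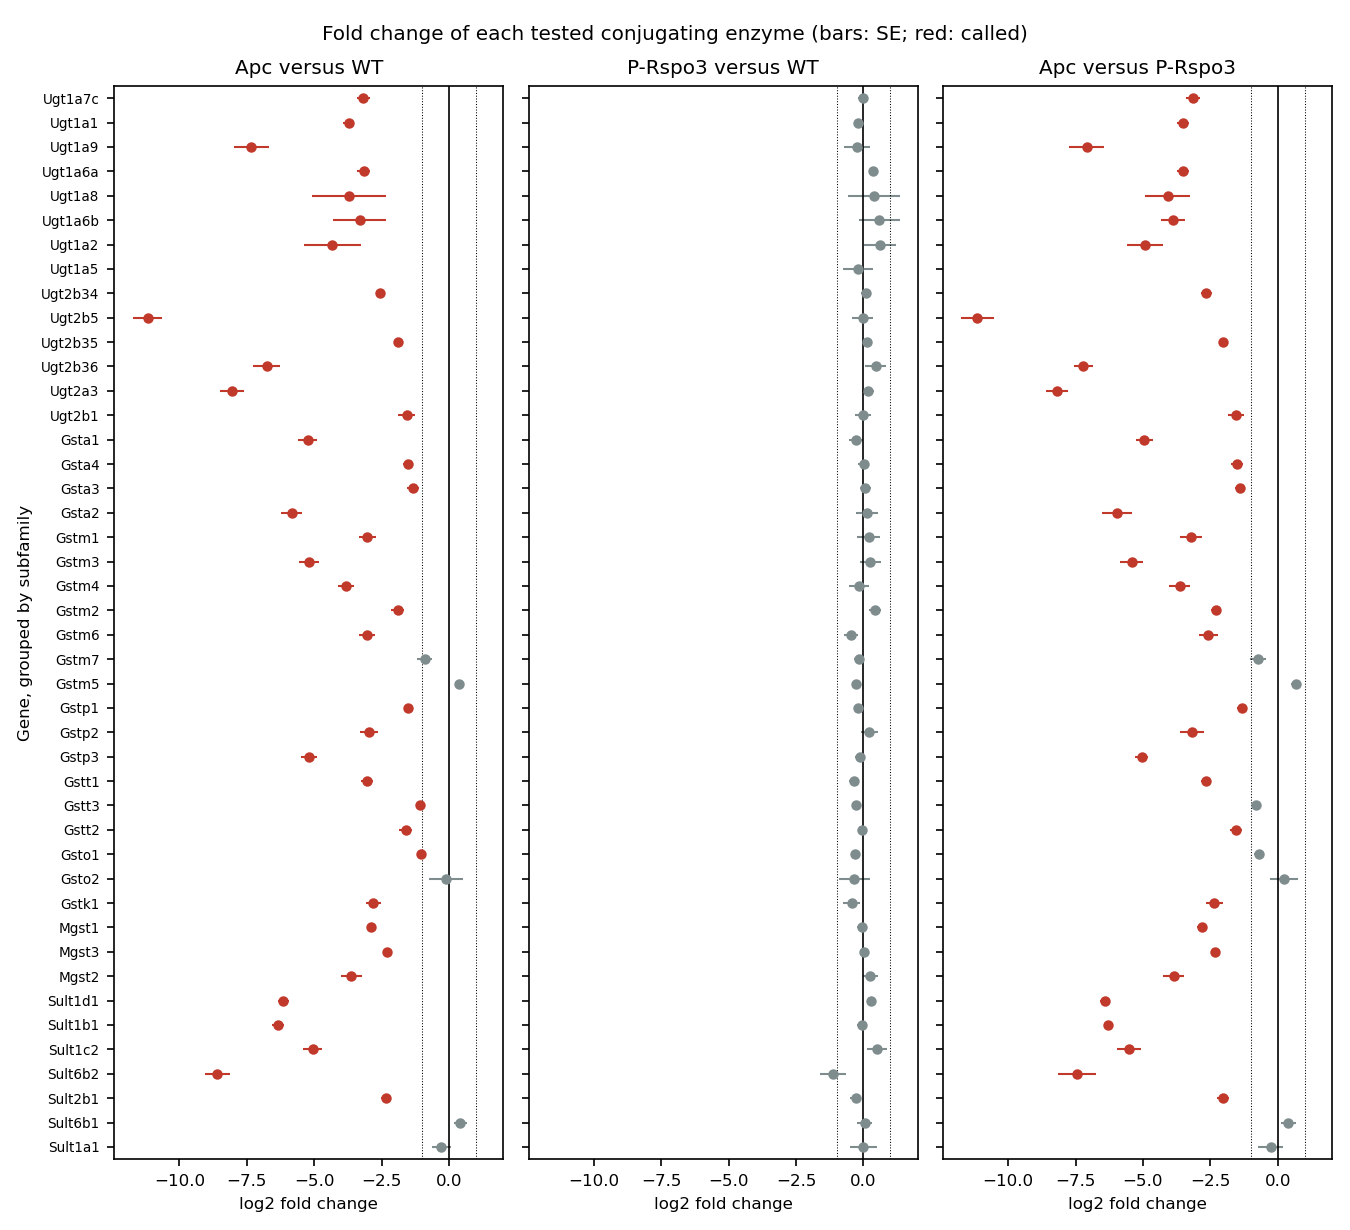
Log2 fold change of each tested member (points, bars showing the SE) in the 3 comparisons, red where called and grey where not, with dotted lines at -1 and 1. In Apc against WT 38 of 43 points are red and all red points lie below -1, in P-Rspo3 against WT none of 44 is red, and in Apc against P-Rspo3 36 of 43 are red.

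Genes around the donors of conjugation were read from lists, which hold genes of donor turnover as well as of donor synthesis. For UDP-glucuronic acid, 0 higher and 2 lower of 5 tested genes were called in Apc versus WT (median -0.86). Ugdh, the dehydrogenase that forms UDP-glucuronic acid, fell at -2.73 ± 0.25 (adjusted p = 5.6e-06) and Ugp2, which forms UDP-glucose, at -1.86 ± 0.14 (adjusted p = 1.3e-06). For glutathione synthesis and recycling the count was 0 higher and 8 lower of 10 (median -1.42). The catalytic subunit of glutamate-cysteine ligase, Gclc, was at -1.75 ± 0.45, its modifier Gclm at -1.25 ± 0.24 and the brush-border gamma-glutamyltransferase Ggt1 at -11.43 ± 0.53, all called lower, while the cystine transporter Slc7a11 (0.25 ± 0.34) was not called. For PAPS the count was 0 higher and 3 lower of 7 (median 0.05): the synthases Papss1 (-1.08 ± 0.099) and Papss2 (-5.93 ± 0.36) and the nucleotidase Bpnt1 (-2.62 ± 0.12) fell. Slc26a1 was not tested. In P-Rspo3 versus WT no gene of these lists was called, with medians of 0.16, 0.0079 and 0.026. In Apc versus P-Rspo3 the counts were 0 higher and 3 lower of 5, 0 higher and 6 lower of 10 and 0 higher and 3 lower of 7 (medians -1.08, -1.20 and 0.055).

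Exporters of conjugates moved in both directions in Apc versus WT, 2 higher and 3 lower of 7 tested (median 0.03). The apical pumps Abcc2 (-2.87 ± 0.36) and Abcg2 (-2.74 ± 0.12) and the basolateral Abcc3 (-2.03 ± 0.20) fell. Abcc4 (3.06 ± 0.27, adjusted p = 3.5e-06) and Abcc1 (1.23 ± 0.12, adjusted p = 8.4e-06) rose, Abcc4 from 18 ± 7.75 to 153 ± 22.4 CPM. Of the enzymes that undo conjugation the count was 1 higher and 2 lower of 4 (median -0.41): Arsa (-1.68 ± 0.21) and Arsg (-1.69 ± 0.28) fell and the arylsulfatase Arsb rose (1.25 ± 0.18), while beta-glucuronidase Gusb was at 0.86 ± 0.092 (adjusted p = 1.6e-05), short of the fold threshold. Against P-Rspo3 these lists gave 2 higher and 3 lower of 7 and 1 higher and 2 lower of 4 (medians -0.015 and -0.20), and P-Rspo3 versus WT gave no call (medians 0.059 and -0.23).

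Among transcription factors and sensors known to regulate conjugating enzymes, 1 higher and 8 lower of 20 tested were called in Apc versus WT (median -0.65). The xenobiotic receptor CAR, Nr1i3, was at 25.1, 25.1, 27.1, 16.6 and 31.1 CPM in WT and 0.154, 0.145, 0.0802 and 0.292 CPM in Apc, at -7.18 ± 0.31 (adjusted p = 3.4e-08). The peroxisome proliferator receptor Ppara (-5.58 ± 0.29), the nuclear receptor Hnf4g (-3.59 ± 0.09), the bile acid receptor Nr1h4 (-3.24 ± 0.13), the pregnane X receptor Nr1i2 (-1.86 ± 0.099), Rxra (-1.66 ± 0.079), the glucocorticoid receptor Nr3c1 (-1.31 ± 0.096) and Hnf4a (-1.27 ± 0.065) also fell. The antioxidant factor Nfe2l2 (-0.039 ± 0.11, adjusted p = 0.788) and Cdx2 (-0.17 ± 0.094, adjusted p = 0.155) were not called, and the aryl hydrocarbon receptor Ahr was at 0.81 ± 0.1 (adjusted p = 4.4e-05), short of the fold threshold. The AHR repressor Ahrr rose (3.18 ± 0.41). In P-Rspo3 versus WT 19 were tested and none called (median -0.042), and in Apc versus P-Rspo3 the count was 1 higher and 9 lower of 20 (median -0.57). These lists describe levels and were not tested as sets.

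Markers of the organoid cell types differed between Apc and WT in both directions. All 10 enterocyte markers were lower in Apc than in WT (median -8.82) and their sum was 200.3, 199, 223 and 166 CPM in Apc replicates 1, 2, 5 and 6, with no marker at 0. The most abundant, the sucrase-isomaltase Sis, was at 4325, 4863, 6933, 4866 and 4246 CPM in WT and 3.93, 9.77, 4.95 and 2.75 CPM in Apc. Anpep fell least, at -1.21 ± 0.25. Crypt stem cell markers gave 4 higher and 1 lower of 5: Lgr5, Ascl2, Smoc2 and the Wnt target Axin2 rose and Olfm4 fell, at -9.78 ± 0.63. The sum of these 5 was 2108 ± 692 CPM in WT and 1668 ± 199 in Apc. Paneth cell markers gave 1 higher and 4 lower of 5, with a sum of 3966 ± 1161 CPM in WT and 764 ± 379 in Apc, goblet cell markers 0 higher and 4 lower of 5 (1710.4 ± 216 and 208 ± 92 CPM), enteroendocrine markers 0 higher and 3 lower of 5 (367 ± 53.7 and 47.5 ± 18.1 CPM) and tuft cell markers 0 higher and 3 lower of 5 (35.5 ± 9.18 and 13.3 ± 4 CPM). The part of these cell types in the fall of the conjugating enzymes was not tested. In P-Rspo3 versus WT none of these 6 lists held a called gene (medians -0.49, -0.33, -0.29, 0.17, -0.20 and -0.62 in the order above), the enterocyte sum being 9567 ± 3481 CPM in P-Rspo3 and 13143 ± 4043 CPM in WT. In Apc versus P-Rspo3 the same lists gave 0 higher and 10 lower of 10, 4 higher and 1 lower of 5, 1 higher and 4 lower of 5, 0 higher and 5 lower of 5, 0 higher and 3 lower of 5 and 0 higher and 2 lower of 4.

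Markers of cells outside the epithelium were low, and no gene of these lists was called in P-Rspo3 versus WT. Stromal markers summed to 1.11 ± 0.363 CPM in WT, 2.04 ± 0.388 in Apc and 2.8 ± 1.36 in P-Rspo3. Of 7, 2 were tested in Apc versus WT, Pdgfra being higher and Pdgfrb lower, and Dcn had 0 CPM in all but 1 library. Immune markers summed to 1.84 to 12.5 CPM over the 13 libraries, with Tyrobp at 0 in all of them. The highest sums were those of WT replicate naive and P-Rspo3 replicate F, where Csf1r stood at 10.4 and 10.6 CPM, and these are also the libraries in which many conjugating enzymes were highest. Of 6 immune markers 2 were tested in Apc versus WT, Cd68 being higher and Csf1r lower. Endothelial markers summed to 1.34 ± 0.363 CPM in WT and 12.2 ± 0.329 CPM in Apc, with 3 of 4 tested. Cdh5 and Tek were higher, Cdh5 at 5.58, 8.09, 7.49 and 9.06 CPM in Apc and 0 in every other library, Pecam1 was lower and Kdr was at 0 throughout. Hepatocyte markers, 0 higher and 2 lower of 3 tested (Ttr and Alb), summed to 15.7 ± 2.46 CPM in WT and 1.8 ± 0.818 CPM in Apc, with Alb at 0.393, 0.807, 0.531, 0.738 and 1.37 CPM in WT. In Apc versus P-Rspo3 the counts were 1 higher and 1 lower of 2 stromal, 1 higher and 1 lower of 2 immune, 2 higher and 1 lower of 3 endothelial and 0 higher and 1 lower of 3 hepatocyte markers. The part of such cells in the results was not tested.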

How the data were processed

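RNA-seq was available for 15 organoid libraries. Of these, 13 were grouped by their labels (5 WT, 4 Apc and 4 P-Rspo3) and 2 were left unassigned. The title NAIVE_F disagrees with its genotype field, and the title LIPO names no genotype. Per the study's methods and the submitters' processing notes, the authors checked reads with FastQC and aligned them to GRCm38 with STAR, and the deposited gene counts came from HTSeq 0.6.0 and the deposited FPKM values from Cufflinks 2.2.1; the annotation release and the strand setting are not given in the sources used here. HTSeq leaves out reads that overlap several genes, whereas Cufflinks divides them, so the FPKM and counts of genes with shared exons differ in kind. Without a stated strand setting, reads of overlapping genes on opposite strands cannot be told apart.

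The quasi-likelihood test of edgeR 4.0.16 (R 4.3.3, TMM normalization) was applied to the counts in a separate fit for each of the 3 comparisons, over all genes with an FPKM of 0.1 or more in at least 4 libraries. Calls required a p under 0.05 after Benjamini-Hochberg adjustment over all genes tested and a log2 fold change past 1 in size. The SE is the absolute log2 fold change divided by the square root of the F statistic. The 2 most abundant members of each subfamily, and the 3 members with the largest called change in each direction whose groups did not overlap, are given in every library, 22 members in all. The members, lists and tests were chosen with earlier results of these data known. Shared sequence was read from the longest protein-coding transcript of each gene. It is the percentage of its 50-base words that occur in a transcript of another gene. Promoters came from RefSeq. One of the 20 regulators counted, and 1 promoter motif, are not reported here. The steps were also tested on simulated data.

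WT and Apc replicates with the same number in their titles were taken as the same line before and after deletion. The labels do not state this pairing. Deviations from the group means correlated at a median r of 0.0933 over the 4 same-line pairs (across genes, which are not independent) and -0.0300 over the 12 other pairs. The libraries held 27466904 to 35528495 counts, so that genes with a few counts, such as Ugt2b5 in Apc organoids, have imprecise fold changes. Alternatives were DESeq2 1.42.0, limma 3.58.1 on log2(FPKM + 1) or log2(FPKM + 0.1), other size factors and filters, a newer form of the edgeR test, 1 fit of all 3 groups, the unassigned libraries placed by genotype, each library left out in turn and the line as a block.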

Additional observations from a re-analysis of the deposited data

Results flagged for a closer look

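In 66 sets of 1 gene in 1 group, each with 4 or 5 libraries, 3 held a library far from the others, where chance alone flags about 0.05 of sets. Mgst2 was at 372 CPM in WT replicate naive and at 167 to 199.7 CPM in the other 4 WT libraries. Sult1d1 was at 118 CPM in WT replicate 6 and at 171 to 181 CPM in the other WT libraries. Sult1b1 was at 1.39 CPM in Apc replicate 1 and at 1.60 to 1.61 CPM in the other Apc libraries, a gap of a few counts. Of the libraries in no comparison, the one titled NAIVE_F, whose genotype field reads P-Rspo3, held 729 Rspo3 counts, against 0 to 1 in the WT libraries. The 4 P-Rspo3 libraries also lay above every WT library for Rspo3.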

How the results depend on the processing

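In both comparisons with Apc the members' median stayed below 0, and no named member changed sign among the called, under every alternative run. In Apc versus WT 38 were called lower, with a range of 32 to 42 over all alternatives and 35 to 39 with 1 library left out, and in Apc versus P-Rspo3 36, with ranges of 34 to 38 and 36 to 37. In P-Rspo3 versus WT no member was called under any alternative. The median log2 fold change in Apc versus WT was -2.61 with limma on log2(FPKM + 1) and -2.62 on log2(FPKM + 0.1), and in Apc versus P-Rspo3 -2.32 and -2.52 with these and -2.82 with no FPKM filter. The limma fits differ from the edgeR fit in test, unit and scaling together; in them the median of all genes was 0.17 and 0.28 (against WT) and 0.16 and 0.25 (against P-Rspo3), and which of these moved it was not tested. With 1 library left out the medians ran from -3.18 to -2.92 and from -3.28 to -2.71. The count called higher was 1 with no FPKM filter in both Apc comparisons (Sult4a1), 1 in Apc versus P-Rspo3 with the adjusted p alone (Gstm5), and 0 to 1 in both with 1 library left out (Sult4a1).

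With the line as a replicate block (4 WT and 4 Apc libraries) the count was 37 lower and 0 higher, with Ugt1a2 below the filter and not tested, and with a median of -2.91, and no other call changed. Among the members given in every library, Gsto1 missed the fold threshold with limma (-0.73 and -0.73) and without WT replicate 1, Apc replicate 2 or Apc replicate 6, and Gstt3 with limma (-0.69 and -0.70); the other values kept their side (410, 395 and 373 in the 3 comparisons). Of the other members named, Ugt2b1, Ugt1a6b and Ugt1a8 were not called in Apc versus WT with either limma fit, nor Ugt1a2 with limma on log2(FPKM + 1), and at an FPKM of 1 or more Ugt2b1, Ugt1a6b and Ugt1a2 were not tested. In Apc versus P-Rspo3 this held for Ugt2b1 and Ugt1a2. Over all genes in Apc versus WT, 2048 were higher and 2364 lower, against 5028 and 4864 with the adjusted p alone, 1418 and 1132 with limma on log2(FPKM + 1), 2586 and 1731 on log2(FPKM + 0.1) and 1184 and 1650 at an FPKM of 1 or more. Over all genes in Apc versus P-Rspo3, 2209 were higher and 2183 lower, against 4719 and 4557, 1430 and 1124, 2608 and 1653, and 1264 and 1533 under the same settings. In P-Rspo3 versus WT the count over all genes was 1 higher and 0 lower with edgeR, 55 and 173 with DESeq2, 14 and 61 with all 3 groups in 1 fit, and 166 and 100 without WT replicate naive; the cause was not tested. Depth limits the fold changes of members with under 12 counts per Apc library, Ugt2b5, Ugt2a3 and Sult6b2 among those named.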

Other observations

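The libraries titled LIPO and NAIVE_F entered no comparison. The title NAIVE_F disagrees with its genotype field, and the title LIPO names no genotype. The one titled LIPO, with a genotype field that reads dox-naive WT, held 40633 counts of Gsta1, 96431 of Gstm1, 9380 of Ugt2b5, 5918 of Sult1d1 and 0 of Rspo3. The library titled NAIVE_F, with the genotype field P-Rspo3, held 30194 counts of Gsta1, 46546 of Gstm1, 5757 of Ugt2b5 and 6807 of Sult1d1. Ugt1a8 had 258 counts in LIPO and 9 in NAIVE_F, beside 3 to 523 counts in the WT and 185 to 281 in the P-Rspo3 libraries, and Ugt1a6b had 64 and 7 counts.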
